A study of Mus musculus with 20 samples.

Results

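The acute-phase response of the liver was followed through 10 genes of the 46078 in the table of counts: *Saa1*, *Saa2*, *Saa3*, *Lcn2*, *Orm1*, *Orm2*, *Hp*, *Hpx*, *Crp* and *Socs3*. They were taken by name as textbook genes of that response, and all 10 were among the 14759 genes that passed the filter on low counts. Livers came from male mice of a 129/C57BL/6 background, at least 9 weeks old, that lacked *Cse* in every tissue (*Cse*-/-) or carried a single intact copy (*Cse*+/-). *Cse*, listed as *Cth*, encodes cystathionine gamma-lyase, which makes cysteine from cystathionine. All mice ate a calorie-restricted control diet for 3 days and were then kept under calorie restriction for 2 days on a test diet, so that restricted feeding was shared by every group. *Cse*+/- mice formed 3 groups: 2 mice stayed on the control diet, 4 received food without cysteine (no-Cys) and 3 received food without tryptophan (no-Trp). *Cse*-/- mice formed the other 3: 4 on no-Cys, 3 on no-Trp, and 4 on no-Trp that also received L-buthionine sulfoximine (BSO), an inhibitor of glutathione synthesis. No *Cse*-/- mouse here stayed on the control diet and no *Cse*+/- mouse received BSO. The sample labels call the control genotype wild type and the study's list of mice calls it heterozygous, and the second name is used.

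In inflammation, injury and some forms of stress, IL-6 family cytokines and IL-1 reach hepatocytes, where STAT3, NF-kB and C/EBP factors raise the transcription of secreted plasma proteins, and glucocorticoids add to that. The serum amyloid A proteins are the most inducible of these in mice, orosomucoids, lipocalin 2, haptoglobin and hemopexin follow, and C-reactive protein, a major acute-phase protein in humans, responds only weakly in mice. SOCS3 is the feedback inhibitor that STAT3 induces, and it blocks further signalling from the IL-6 receptor chain.

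The libraries held 11785740 to 57986121 counts on genes. Values are CPM, the counts of a gene scaled to a fixed library total, after scaling with TMM factors, which correct for differences in library composition. *Cth* was at 88.4 to 332 CPM in the *Cse*+/- livers and at 6.37 to 14.4 CPM in the *Cse*-/- livers, as the labels say. Hepatocyte markers summed to 52030 to 124100 CPM in every liver, whereas the 10 neutrophil markers summed to 0.384 to 4.26 CPM and the 10 macrophage markers to 285 to 444 CPM. Of the neutrophil markers only *S100a8* and *S100a9* passed the filter on low counts. Stellate cell markers summed to 162 to 280 CPM, endothelial markers to 127 to 175 CPM, lymphocyte markers to 1.06 to 4.53 CPM and adipocyte markers to 3.96 to 17.8 CPM, with *Lep* listed at 0 in all livers. These are whole livers, so fewer cells of a type and less RNA per cell cannot be told apart.

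*Saa1* (chr7:46740497-46742980, minus strand of GRCm38) and *Saa2* (chr7:46751790-46754313, plus strand) lie head to head, with 8810 bases between their starts. The bases upstream of both are shown because their transcripts varied together from mouse to mouse, beside those of *Orm2*, which varied almost as widely, and of *Crp*, which hardly varied. Capitals mark matches to the C/EBP letters TTNNGNAA on either strand, and each sequence runs 5′ to 3′ up to the base before the start of the annotated gene, from RefSeq on GRCm38.p6. The windows are chr7:46742981-46743230 on the minus strand for *Saa1*, chr7:46751583-46751789 on the plus strand for *Saa2*, chr4:63362199-63362448 on the plus strand for *Orm2* and chr1:172697806-172698054 on the plus strand for *Crp*.
Saa1: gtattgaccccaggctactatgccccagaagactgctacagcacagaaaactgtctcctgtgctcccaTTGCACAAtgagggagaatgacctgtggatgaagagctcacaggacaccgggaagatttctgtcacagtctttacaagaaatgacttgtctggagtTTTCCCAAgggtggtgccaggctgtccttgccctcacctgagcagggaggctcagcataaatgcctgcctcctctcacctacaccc
Saa2: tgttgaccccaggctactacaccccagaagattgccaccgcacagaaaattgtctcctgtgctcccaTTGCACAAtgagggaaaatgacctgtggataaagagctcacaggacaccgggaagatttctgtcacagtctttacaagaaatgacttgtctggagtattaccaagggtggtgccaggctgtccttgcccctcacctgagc
Orm2: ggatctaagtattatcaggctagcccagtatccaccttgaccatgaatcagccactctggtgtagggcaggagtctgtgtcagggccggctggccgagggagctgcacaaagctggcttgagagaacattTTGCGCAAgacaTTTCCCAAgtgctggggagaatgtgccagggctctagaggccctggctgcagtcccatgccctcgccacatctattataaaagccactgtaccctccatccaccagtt
Crp: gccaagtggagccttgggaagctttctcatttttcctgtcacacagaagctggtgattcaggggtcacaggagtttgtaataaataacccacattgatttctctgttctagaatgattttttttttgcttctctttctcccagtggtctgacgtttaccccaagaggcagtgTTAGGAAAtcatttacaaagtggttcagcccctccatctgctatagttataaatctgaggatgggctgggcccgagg

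The *Saa1* and *Saa2* stretches could be aligned over 204 bases, of which 194 were identical (95.1%). *Saa1* held a match 182 bases before its start and another 86 bases before it, *Saa2* held only the one that lies 183 bases before the start RefSeq gives, and *Orm2* held 2 places, of which the one 120 bases before the start reads the same on both strands. The letters TTCNNNGAA for STAT factors, and a motif each for NF-kB and HNF1, were also searched on both strands. Of the 8 acute-phase genes with an entry, *Socs3* alone held the STAT letters, 154 bases before the start RefSeq gives, and none held the NF-kB or HNF1 motif. The windows of 2 of the 8, *Lcn2* and *Socs3*, lie inside a longer annotated gene, so the STAT match lies inside the annotated *Socs3* gene. Among 32851 windows of 250 upstream bases, 36.8% held the C/EBP letters, 7.02% the STAT letters, 4.11% the NF-kB motif and 0.00913% the HNF1 motif, so a C/EBP match is common. *Orm1* and *Hp* had no entry. No match overlapped one of another motif.

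*Saa1* and *Saa2* transcripts differed most from mouse to mouse. *Saa1*, which encodes a circulating apolipoprotein of high-density lipoprotein, was at 31.05 and 48.5 CPM in the *Cse*+/- control livers. In the *Cse*+/- no-Trp livers it was at 1429, 465.5 and 61.1 CPM, and in the *Cse*+/- no-Cys livers at 729, 27.5, 210 and 23.7 CPM. In both of those groups at least 1 liver was many times above the control livers and at least 1 was close to them. The *Cse*-/- livers reached 191 CPM at most, with 30.2, 12.8, 14.8 and 191 CPM on the no-Cys diet, 82.2, 40.8 and 49.5 CPM on the no-Trp diet and 73.8, 69.5, 79.4 and 21.75 CPM with BSO. *Saa2*, its close relative, followed the same order of mice at its top, with 526, 10.1, 85.2 and 10.4 CPM in the *Cse*+/- no-Cys livers and 8.50, 3.23, 4.34 and 75.0 CPM in the *Cse*-/- no-Cys livers. Its *Cse*+/- no-Trp livers were at 550, 113 and 23.1 CPM, against 13.2 and 16.6 CPM in the control livers. Of the stretches of 61 bases (the read length) in *Saa1* transcripts, 25.3% also occur in *Saa2*, and 24.4% the other way round, so the split of reads between this pair is uncertain. *Saa3*, which macrophages and fat cells also make, had a different order: its 3 *Cse*+/- no-Trp livers were close together, at 9.31, 9.36 and 11.0 CPM, and only the highest *Cse*+/- no-Cys liver, at 10.4 CPM, reached them.

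**Figure D1:**
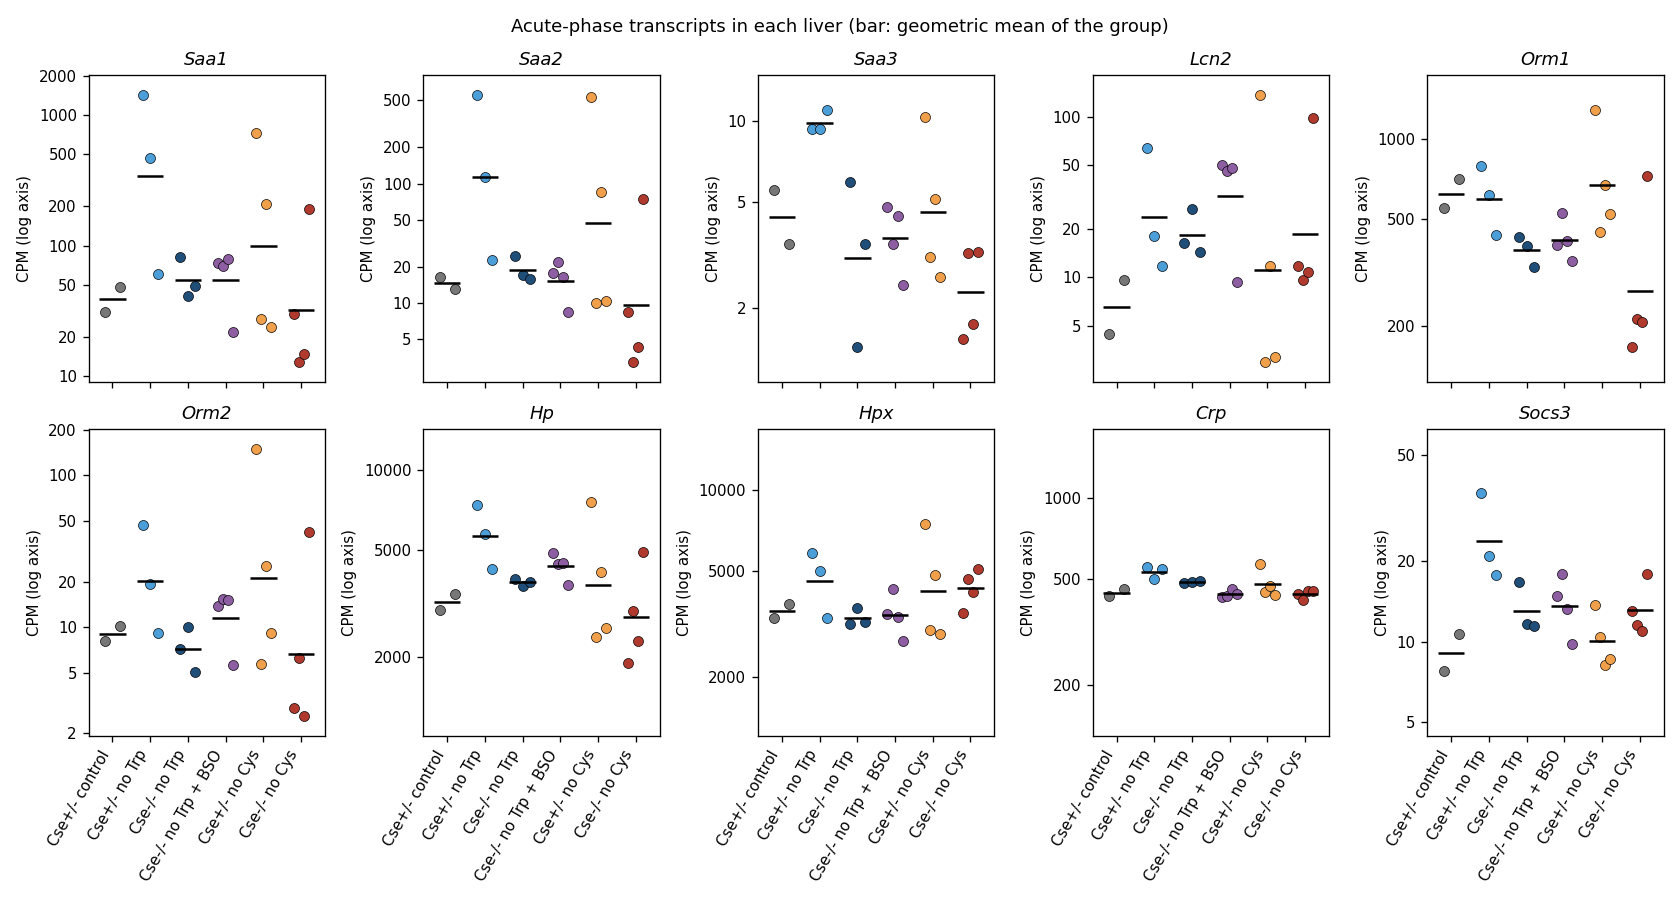
CPM of each of the 10 acute-phase genes in each liver (points, log axis), with the geometric mean of the group (bar), for 6 groups of genotype and diet. In each no-Cys group the same liver is the highest for *Saa1*, *Saa2*, *Lcn2* and *Orm2*, and for *Saa1* a second *Cse*+/- no-Cys liver, at 210 CPM, also lies far above the remaining pair, whereas *Crp* stays between 415 and 565 CPM in all 20 livers.

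The same few livers were high for most of these genes. Mouse av01 (*Cse*+/-, no Cys) and mouse av17 (*Cse*+/-, no Trp) were each among the 3 highest of 20 livers for 9 of the 10 genes, and mouse av01 was the highest of all for 6. Mouse av08 (*Cse*-/-, no Cys) and mouse av19 (*Cse*+/-, no Trp) were among the 3 highest for 5 each. The other 3 *Cse*-/- no-Cys livers, av05, av06 and av07, were among the 3 lowest for 5, 4 and 6 genes. The 10 genes took 1.74% of all counts on genes in mouse av01 and 0.607% in mouse av04 of the same group. *Cth* was also highest in av01 within its group, at 332 CPM against 121 to 132 CPM, and highest in av08 within its own, at 13.3 CPM against 6.37 to 7.04 CPM. Summed neutrophil markers were at 2.16 CPM in av01, 0.664 CPM in av08 and 4.26 CPM in av17, and whether either measure has a part in these results was not tested.

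*Lcn2*, which encodes an iron-siderophore binding protein, was at 137 CPM in mouse av01 and at 2.96, 11.8 and 3.18 CPM in the other *Cse*+/- no-Cys livers. The *Cse*-/- no-Cys livers were at 11.8, 9.68, 10.7 and 99.2 CPM. Of the 4 *Cse*-/- livers on the no-Trp diet with BSO, 3 were at 46.15 to 50.3 CPM and the other, av12, at 9.385 CPM, while the 3 *Cse*-/- no-Trp livers were at 14.4 to 26.8 CPM. The *Cse*+/- no-Trp livers were at 64.0, 18.1 and 11.8 CPM and the control livers at 4.46 and 9.61 CPM. Every liver of the *Cse*-/- no-Cys, *Cse*-/- no-Trp and *Cse*+/- no-Trp groups was above both control livers, and all other pairs of groups overlapped.

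The orosomucoids are acid glycoproteins that carry small molecules in plasma. *Orm1* (chr4:63344560-63348163) was at 1285, 447, 672 and 522 CPM in the *Cse*+/- no-Cys livers and at 166, 212, 207 and 725 CPM in the *Cse*-/- no-Cys livers. Of those 4 *Cse*-/- livers, 3 were the lowest of all 20, and av08 was above 3 of the 4 *Cse*+/- livers. *Orm2*, 14286 bases downstream, was at 150, 5.715, 25.3 and 9.20 CPM and at 2.95, 6.23, 2.61 and 42.35 CPM in the same groups. *Orm1* and *Orm2* share 17.5% and 18.9% of their 61-base stretches with other transcripts, mostly each other's, so that their split is uncertain as well. *Orm1* ranged from 332 to 428 CPM in the *Cse*-/- no-Trp livers and from 348 to 527 CPM with BSO, and both groups were below the 2 control livers, at 550 and 705 CPM.

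Haptoglobin binds free haemoglobin and hemopexin binds free haem. *Hp* was at 7575, 2363, 4142 and 2567 CPM in the *Cse*+/- no-Cys livers and at 1899, 2966, 2286 and 4934 CPM in the *Cse*-/- no-Cys livers. It was at 7358, 5735 and 4262 CPM in the *Cse*+/- no-Trp livers, each above the 3684 to 3912 CPM of the *Cse*-/- no-Trp livers and the 2981 and 3428 CPM of the control livers. *Hpx* ranged from 2737 to 7480 CPM, with av01 again at the top, and its groups overlapped in every genotype comparison. *Crp*, which encodes a pentraxin, was at 415 to 565 CPM in all 20 livers, a range of 1.36-fold, where *Saa2* spanned 171-fold.

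**Figure D2:**
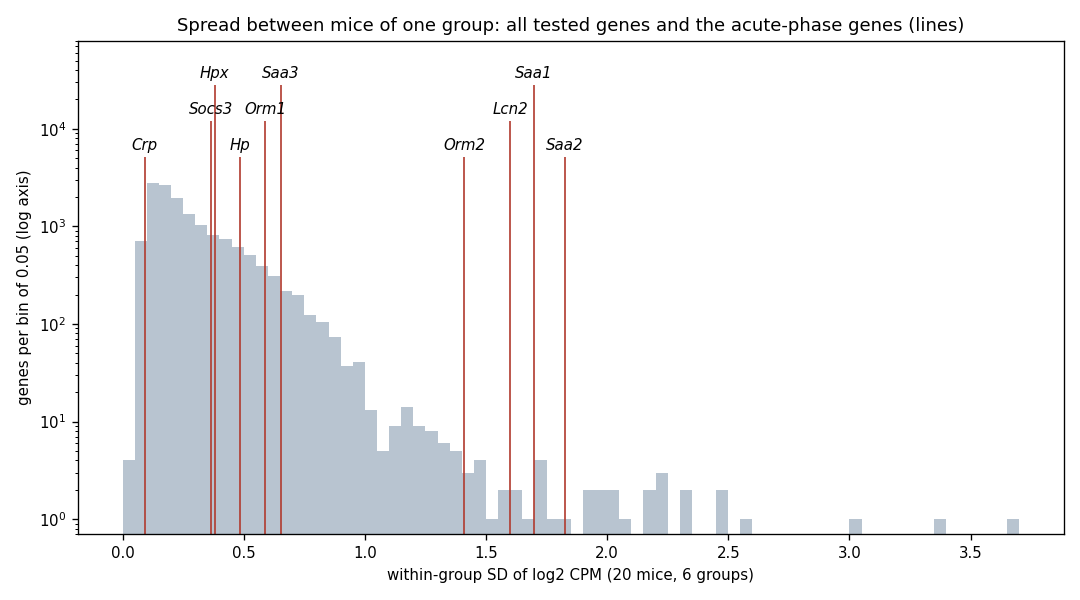
Number of tested genes (log axis) by the standard deviation of log2 CPM within groups, pooled over 6 groups of 20 mice, with the 10 acute-phase genes as lines. *Saa1*, *Saa2*, *Lcn2* and *Orm2* lie far to the right, above 99.7% of all genes, and *Crp* lies at the left edge.

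The spread within groups was put on one scale as the standard deviation of log2 CPM. Its median over all tested genes was 0.23. It was 1.82 for *Saa2*, 1.70 for *Saa1*, 1.60 for *Lcn2* and 1.41 for *Orm2*, each larger than in at least 99.7% of the tested genes. It was 0.65 for *Saa3*, 0.59 for *Orm1*, 0.48 for *Hp*, 0.38 for *Hpx* and 0.37 for *Socs3*, which lay between the 72.8 and 94.0 percentiles. For *Crp* it was 0.092, at the 3.10 percentile. The differences between group means made up 20.5% of the variance of *Lcn2* and 24.4% of that of *Orm2*, but 64.0% of that of *Socs3*.

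The question of the no-Cys comparison was what cysteine deprivation does in mice that cannot make cysteine. In the *Cse*-/- no-Cys livers 9 of the 10 genes had a fitted level below that of the *Cse*+/- no-Cys livers, with a median log2 fold change of -0.79 beside -0.01 over all tested genes. Only 1 of the 10 passed the test, against 23.8% of all tested genes. That was *Orm1*, lower by a log2 fold change of -1.16 (SE 0.381, edgeR adjusted p = 0.0328), with 3 of 4 *Cse*-/- livers below every *Cse*+/- liver. The log2 fold changes were -2.80 for *Saa2* (SE 1.12, edgeR adjusted p = 0.0757) and -1.12 for *Saa3* (SE 0.427, edgeR adjusted p = 0.0635). They were -1.99 for *Saa1* (SE 1.00, edgeR adjusted p = 0.156) and -1.82 for *Orm2* (SE 0.878, edgeR adjusted p = 0.141). For the rest the 95% intervals of the log2 difference were -2.23 to 1.77 for *Lcn2*, -1.10 to 0.17 for *Hp*, -0.56 to 0.43 for *Hpx*, -0.30 to 0.05 for *Crp* and -0.12 to 0.89 for *Socs3*. Single mice decided the calls: without av08 *Saa1*, *Saa2*, *Orm1* and *Orm2* passed, with log2 fold changes of -3.67, -4.86, -1.91 and -3.61, and without av01 none did. Without av01 the log2 fold changes were -0.49 for *Saa1*, -0.64 for *Saa2*, -0.58 for *Saa3*, -0.74 for *Orm1*, -0.0014 for *Orm2* and -0.0027 for *Hp*. DESeq2 called *Saa3* in place of *Orm1* (adjusted p = 0.0266 and 0.0615), and edgeR on the 8 no-Cys livers alone called none of the 10. Markers of other cell types were compared in the same livers, to be read against the 23.8% of all tested genes called. Macrophage markers had a lower fitted level in *Cse*-/- livers for 10 of 10 (2 called). Stellate markers were lower for 6 of 6 (2 called), and lymphocyte markers for all 3 that passed the filter (0 called). Endothelial markers went both ways, 2 higher and 3 lower with 1 called higher. Their sums overlapped, at 133.9 to 147.7 CPM in *Cse*-/- and 139.5 to 173.8 CPM in *Cse*+/- livers. Of 3 adipocyte markers that passed the filter 1 was higher and 2 were lower, with 0 called. Stellate markers summed to 184.5 to 225.9 CPM in *Cse*-/- and 232.9 to 279.5 CPM in *Cse*+/- no-Cys livers, lymphocyte markers to 1.06 to 1.68 CPM against 1.71 to 3.32 CPM, macrophage markers to 285 to 342 CPM against 341 to 419 CPM, and neutrophil markers to 0.590 to 0.953 CPM against 0.564 to 2.18 CPM. Their part in the result was not tested. *Orm1* was also lost when av05, av06 or av07 was left out, *Saa2* and *Saa3* passed beside it without av02 or av04, and without av01 the difference of *Lcn2* turned to 2.46 (edgeR adjusted p = 0.0546).

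**Figure D3:**
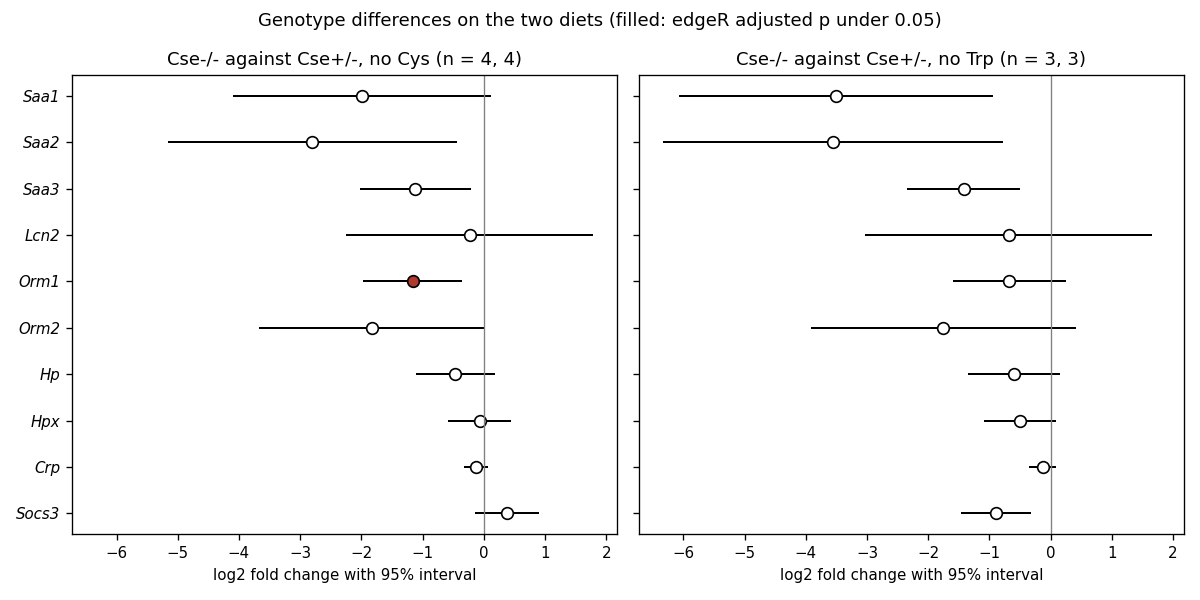
Log2 fold change of *Cse*-/- against *Cse*+/- livers for the 10 genes on the no-Cys diet (n = 4 and 4) and the no-Trp diet (n = 3 and 3), with 95% intervals from the edgeR fit (lines) and filled points where the adjusted p was under 0.05. *Orm1* on the no-Cys diet is the only filled point, and on the no-Trp diet all 10 points lie left of 0.

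On the no-Trp diet, which the study used to tell cysteine loss from the loss of another amino acid, all 10 genes had a lower fitted level in the *Cse*-/- livers, with a median log2 fold change of -0.79 beside 0.00 over all tested genes. None of the 10 passed the test by edgeR, against 2.64% of all tested genes, although 4 had an unadjusted p under 0.05, as had 2713 of all 14759 tested genes. The log2 fold changes were -3.50 for *Saa1* (SE 1.22, edgeR adjusted p = 0.132) and -3.56 for *Saa2* (SE 1.32, edgeR adjusted p = 0.154). They were -1.42 for *Saa3* (SE 0.437, edgeR adjusted p = 0.0838) and -0.89 for *Socs3* (SE 0.263, edgeR adjusted p = 0.0737). Without av17 the values were -2.20 for *Saa1*, -1.82 for *Saa2*, -0.55 for *Socs3* and 0.34 for *Lcn2*. DESeq2 called *Saa3* and *Socs3*, as did edgeR without av14, and edgeR without a filter on low counts called *Saa1*, *Saa2*, *Saa3* and *Socs3*.

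Among the *Cse*+/- mice, which can make cysteine, the 2 diets were set against each other and against the control diet. *Socs3* was at 35.9, 20.9 and 17.8 CPM in the *Cse*+/- no-Trp livers, at 13.7, 10.4, 8.17 and 8.63 CPM in the *Cse*+/- no-Cys livers and at 7.73 and 10.65 CPM in the control livers. All 3 no-Trp livers were above every liver of the other 2 groups. *Socs3* was lower on the no-Cys than on the no-Trp diet, with a log2 fold change of -1.27 (SE 0.251, edgeR adjusted p = 0.00513), and was the only one of the 10 genes to pass, against 8.04% of all tested genes. It passed under every setting tried, with an adjusted p of at most 0.0309, and without av01 *Saa3* and *Hp* passed as well. Against the control diet *Socs3* on the no-Trp diet had a log2 fold change of 1.43 (SE 0.315, edgeR adjusted p = 0.155). None of the 10 genes passed in that comparison by edgeR, against 0.0474% of all tested genes, and 6 had an unadjusted p under 0.05, as had 1371 of all 14759. DESeq2 called *Socs3* there with an adjusted p of 0.00354. The fitted log2 fold changes of *Saa1* and *Saa2* were 4.03 and 3.93, with 95% intervals of 0.92 to 7.15 and 0.56 to 7.31, and without av17 that of *Saa1* was 2.74. For the no-Cys diet against the control diet none of the 10 passed, against 2.18% of all tested genes, 1 had an unadjusted p under 0.05 beside 2456 of all 14759 and DESeq2 called none either, with log2 fold changes from 0.12 for *Crp* to 3.40 for *Saa2*. Without av01 the value of *Saa2* was 1.24. Cell type markers were also summed in these livers. In the *Cse*+/- no-Trp livers the 10 neutrophil markers summed to 2.02 to 4.26 CPM, against 0.4759 and 0.9747 CPM in the control livers. The 10 macrophage markers summed to 367 to 444 CPM, against 290.5 and 321 CPM. Of the macrophage markers 9 of 10 had a higher fitted level, 6 with an unadjusted p under 0.05, beside the 1371 of 14759 above, and none called by edgeR. Hepatocyte markers went the other way, at 91040 to 99470 CPM against 123700 and 124100 CPM. Stellate markers had a lower fitted level for 5 of 6. The macrophage sum did not follow *Saa1* among the *Cse*+/- no-Trp livers: av20 had the highest sum, 444 CPM, and the lowest *Saa1*, 61.1 CPM. The macrophage sum of the *Cse*+/- no-Cys livers, at 341 to 419 CPM, was also above that of the control livers, with 10 of 10 markers at a higher fitted level, 4 of them with an unadjusted p under 0.05 and none called. The neutrophil sum of the *Cse*-/- no-Trp livers, at 0.686 to 1.47 CPM, also lay below that of the *Cse*+/- no-Trp livers. Only 2 of the 10 neutrophil markers passed the filter, so the neutrophil sums rest on few counts. The part of the cell type markers in the results was not tested.

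The genotype difference of *Socs3* depended on the diet. *Socs3* was at 13.0, 11.5, 10.9 and 17.9 CPM in the *Cse*-/- no-Cys livers and at 16.7, 11.7 and 11.4 CPM in the *Cse*-/- no-Trp livers. The log2 difference between genotypes was 0.38 on the no-Cys diet and -0.89 on the no-Trp diet, and the difference of these, the interaction, was 1.28 (SE 0.357, edgeR adjusted p = 0.0473). It was the only one of the 10 genes to pass that test, against 4.36% of all tested genes. The call was lost in a fit on only the 4 groups of that comparison (adjusted p = 0.0711) and when any one of 10 of the 14 mice was left out, with log2 values of 0.93 to 1.49 over all single removals. These comparisons share mice: the *Cse*+/- no-Trp livers stand in 4 of them and the *Cse*+/- no-Cys livers in another set of 4, so they are not separate pieces of evidence.

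Within the *Cse*-/- mice the acute-phase genes gave no call. None of the 10 passed between the no-Cys and the no-Trp diet, against 10.4% of all tested genes, none passed between the no-Trp diet with and without BSO, against 0.793%, and none between the no-Trp diet with BSO and the no-Cys diet, against 2.75%. In each of the 3 comparisons none of the 10 had an unadjusted p under 0.05, beside 3907, 1926 and 2958 of all 14759 tested genes in the same order, and DESeq2 called none of the 10. The largest fitted difference with BSO was that of *Lcn2*, a log2 fold change of 1.01 with a 95% interval of -1.19 to 3.21. For *Crp* the interval of the same difference was -0.33 to 0.04. Without av08 *Orm1* passed in both comparisons with the no-Cys diet, at -0.985 against the no-Trp diet and 1.11 for the BSO group against it.

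The level of *Saa1* was related to that of each of the other 9 genes across mice, while r for pairs without *Saa1* went down to 0.2496 for *Orm1* and *Socs3*, 0.322 for *Saa3* and *Lcn2* and 0.415 for *Lcn2* and *Orm1*, given without a test. Over the 20 mice *Saa1* and *Saa2* had a Pearson r of 0.978 (Spearman rho 0.943, permutation p = 1e-05 for both, the smallest that 100000 permutations can give). For *Saa1* and each of the other 9 genes r ran from 0.6715 for *Socs3* to 0.978 for *Saa2*, and permutation p adjusted over the 9 relations was at most 0.00105 for r and 0.0131 for rho. Without mice av17 and av01, the 2 farthest from the median of *Saa1*, r ran from 0.472 for *Crp* to 0.964 for *Saa2*. With group means removed r was 0.904 for *Lcn2*, 0.892 for *Orm2*, 0.878 for *Hp*, 0.603 for *Crp* and 0.543 for *Saa3*, the lowest of the 9, and *Crp* did not pass (permutation p = 0.0561). The relation of *Lcn2* with *Saa1* was closer within groups, at 0.904, than over all mice, at 0.683, and that difference between the values was not tested.

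*Lcn2* was high relative to *Saa1* in the *Cse*-/- livers. The ratio of *Lcn2* to *Saa1* was 0.199 to 0.754 in the 11 *Cse*-/- livers and 0.0388 to 0.198 in the 9 *Cse*+/- livers, without overlap, though the edges nearly met. It was 0.389 to 0.754 in the *Cse*-/- no-Cys livers against 0.0564 to 0.189 in the *Cse*+/- no-Cys livers. The ratio of *Lcn2* to *Orm2* did not overlap either, at 1.55 to 4.12 in the *Cse*-/- and 0.346 to 1.35 in the *Cse*+/- livers. These ratios were chosen after their values were seen and are a description without a test. Of the 45 ratios between 2 of the 10 genes, these 2 were the ones without overlap between all *Cse*-/- and all *Cse*+/- livers, against 0.252% of ratios of any tested gene to one of the 10, 0.0339% of ratios to *Saa1* and 0.0407% of ratios to *Orm2*. For the 4 and 4 no-Cys livers 8 of the 45 ratios did not overlap, against 6.27% for ratios of any tested gene to one of the 10. Ratios of genes that vary together spread less, as *Lcn2* and *Saa1* varied within groups (r = 0.904). The shares for any tested gene are therefore not a like comparison. BSO was given to *Cse*-/- mice only and the control diet to *Cse*+/- mice only, so over all mice genotype and these treatments cannot be told apart, whereas the no-Cys livers of both genotypes share a diet.

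**Figure D4:**
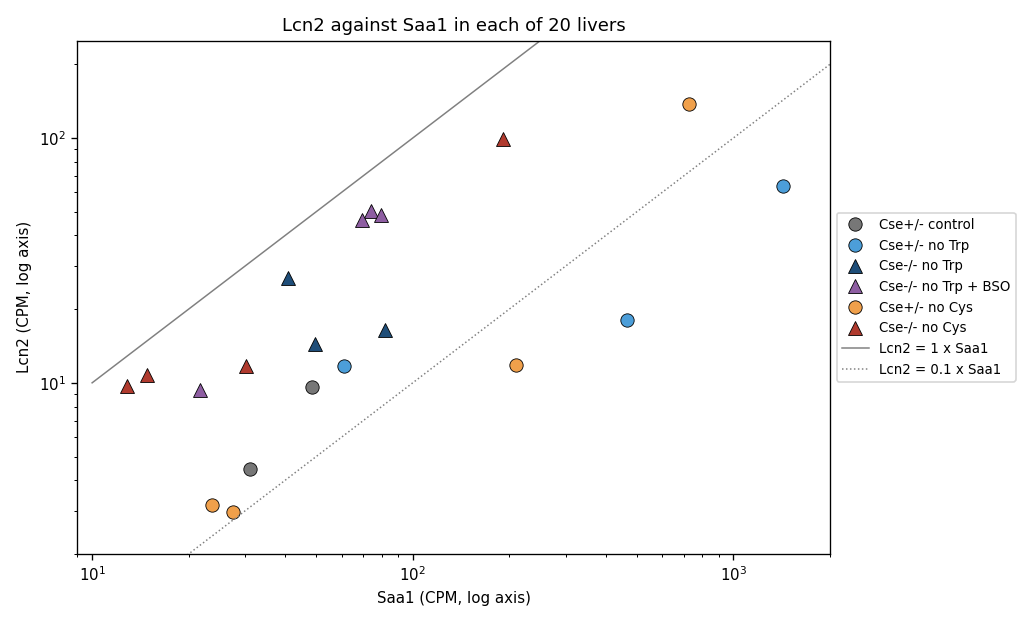
*Lcn2* against *Saa1* in CPM (both log axes) in each of 20 livers, circles for *Cse*+/- and triangles for *Cse*-/- mice, with lines of equal ratio. Every triangle lies at a ratio of 0.199 or more and every circle at 0.198 or less.

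The genes most like each acute-phase gene over the 20 mice, by Pearson r of log2 CPM among 12533 genes, were as follows. For *Saa1* they were *Lrg1* (r = 0.9085), *Fgb* (0.871) and *Itih4* (0.857), and for *Saa2* *Lrg1*, *Fgb* and *Fgg* (0.905 to 0.874). *Lrg1* encodes leucine-rich alpha-2-glycoprotein, and *Fgb* and *Fgg* encode fibrinogen chains. For *Orm2* they were *Fgl1* (0.967), *Itih4* (0.900) and *Lrg1* (0.895), for *Orm1* *Kng1* (0.942) and *Cfi* (0.920), for *Hp* *Fgl1*, *Cxcl1* and *Tmem176b* (0.874 to 0.850), and for *Lcn2* *Lbp* (0.850), *Hrg* (0.769) and *Orm3* (0.768). *Fgl1* ranged from 147.5 to 1288 CPM and was lowest in av05 and highest in av01. *Hpx* was closest to *Cyb561*, *Itih3* and *C3* (0.766 to 0.750), *Crp* to *Onecut2*, *Icam1* and *Gm15502* (0.835 to 0.780), *Socs3* to *Osbpl9*, *Dap* and *Thpo* (0.854 to 0.825) and *Saa3* to *Slc1a5*, *Mpnd* and *Isyna1* (0.855 to 0.818).

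Counts of calls among other genes of the response are to be read against the 23.8% of all tested genes called between the genotypes on the no-Cys diet and the 10.4% called between the no-Cys and no-Trp diets in *Cse*-/- livers. Of 20 further positive acute-phase genes 1 rose and 1 fell between genotypes on the no-Cys diet: *Apcs*, the serum amyloid P pentraxin, by a log2 fold change of 1.76 (edgeR adjusted p = 0.0127), and *Mbl2*, mannose-binding lectin, at -0.68 (edgeR adjusted p = 0.00255). *Fgl1* was the lowest of that list, at -0.80 (edgeR adjusted p = 0.291). *Apcs* was at 343 to 587 CPM in the *Cse*-/- no-Cys livers and at 54.5 to 296 CPM in the *Cse*+/- no-Cys livers, in the opposite direction to 9 of the 10 genes. Of 8 negative acute-phase genes, which normally fall in the response, 5 fell and 1 rose, led by *Alb*, albumin (-1.26), *Ttr*, transthyretin (-1.04), *Apoa1* (-0.77) and *Trf*, transferrin (-0.73), with *Ahsg*, fetuin A, higher (0.44). *Alb* was at 25510 to 49490 CPM in those *Cse*-/- livers and at 64180 to 87980 CPM in the *Cse*+/- livers, the summed hepatocyte markers, which include it, were at 52030 to 83200 CPM against 97110 to 121200 CPM, and the part of the one in the other was not tested.

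Of 8 cytokine genes only *Il1a* and *Il1b* passed the filter on low counts, and *Il6* did not exceed 0.207 CPM in any liver. *Il1a* fell by 0.80 on the log2 scale on the no-Cys diet in *Cse*-/- against *Cse*+/- livers. *Il1b* was at 0.236 to 0.733 CPM in the *Cse*-/- no-Cys livers, at 0.680 to 1.40 CPM in the BSO group and at 2.24 to 3.52 CPM in the *Cse*-/- no-Trp livers, and these ranges overlap only between the first pair. Its log2 fold change was -2.57 between the no-Cys and no-Trp diets (edgeR adjusted p = 0.000187) and -1.42 for the no-Trp diet with against without BSO (edgeR adjusted p = 0.0251). At 0.236 to 0.733 CPM in the *Cse*-/- no-Cys livers *Il1b* rests on few counts there. Among 8 receptors *Lifr* (-0.90) and *Il1rap* (-0.35) fell between genotypes on the no-Cys diet, a share near the 23.8% of all tested genes called there, and *Il1rap* fell between the diets in *Cse*-/- livers (-0.38). Among 11 kinases and transcription factors *Relb* (-0.88), *Cebpb* (-0.68) and *Jak2* (-0.46) fell in the genotype comparison, again a share near that of all tested genes, and *Cebpa* fell between the diets (-0.52).

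Of 10 inhibitors and feedback genes *Nfkbia*, which holds NF-kB in the cytoplasm, fell between genotypes on the no-Cys diet (-0.56), and *Bcl3* (-1.05) and *Pias3* (-0.71) fell between the no-Cys and no-Trp diets in *Cse*-/- livers. Of 9 glucocorticoid-responsive genes 4 fell and 1 rose between genotypes on the no-Cys diet, against 23.8% of all tested genes called in either direction, with *Dusp1* at -1.61, *Tsc22d3* at -1.40, *Sgk1* at -0.67 and *Zbtb16* at 1.66, and between the diets in *Cse*-/- livers *Dusp1* (-1.45) and *Nr3c1* (-0.39) fell while the other 7 had fitted values above 0, with a median of 0.10 for the 9. Of 3 receptors for acute-phase proteins *Cd163*, which takes up haptoglobin with haemoglobin, rose between genotypes (0.62). The following were chosen after their values were seen. *Cish*, a feedback inhibitor of STAT5 signalling, was at 27.7 to 52.5 CPM in the *Cse*+/- no-Trp livers and at 28.5 and 34.9 CPM in the control livers, and at 3.37 to 13.25 CPM in all other groups. It fell in the *Cse*+/- no-Cys against no-Trp livers (-2.40, edgeR adjusted p = 0.000522), together with *Bcl3* (-1.84), *Stat3* (-0.96), *Il1r1* (-1.29) and *Osmr* (-0.59), in the comparison in which *Socs3* passed. *Zfp36* (1.02), of the inhibitors and feedback genes, and *Tsc22d3* (1.59), of the glucocorticoid-responsive genes, rose there. In that comparison, in which 8.04% of all tested genes were called, 3 of 8 receptors, 3 of 11 kinases and transcription factors and 3 of 20 further positive acute-phase genes fell, and of 10 inhibitors and feedback genes 3 fell and 1 rose. Of 9 glucocorticoid-responsive genes 1 fell and 1 rose there, with 7 fitted values above 0. Between genotypes on the no-Trp diet, with 2.64% of all tested genes called, 3 of the 10 inhibitors and feedback genes fell, namely *Cish* (-2.48), *Socs2* (-1.73) and *Bcl3* (-1.20). The interaction of genotype and diet for *Cish* was 2.57 (edgeR adjusted p = 0.00618).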

How the data were processed

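The authors made poly(A)-selected paired-end libraries from 20 mouse livers and deposited raw counts of reads per gene. The submitters' processing notes name HISAT2 2.1.0, HTSeq 0.11.0 and GRCm38, while the sources used here do not give the annotation release or the treatment of reads shared by 2 genes. Columns of the table carry mouse numbers, which were tied to the groups of the labels through the study's list of mice, and 1 of its 21 columns was not used. Symbols and coordinates came from GENCODE M21 (45229 identifiers matched and 849 did not).

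Genes were kept with edgeR's filterByExpr (minimum count 10, minimum total 15), which left 14759. All 20 libraries entered one quasi-likelihood fit with 6 group means and TMM factors (edgeR 4.0.16, limma 3.58.1, R 4.3.3; common dispersion 0.027), and p-values were adjusted over all tested genes by Benjamini-Hochberg with a threshold of 0.05. Log2 CPM used a prior count of 2. Correlations used 100000 permutations (Python 3.11.15, numpy 2.4.6, scipy 1.17.1, matplotlib 3.10.9). The fits were tested on simulated data. The labels call samples of a group biological replicates. In all 25 pairs of livers of 1 group the counts differed by more than sampling noise (chi-square per gene 9.6 to 64.2).

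The text names the 10 genes, the 3 genes most like each of them with a mean CPM of at least 1, and, from each list of pathway genes, at most 4 of the largest called changes per comparison with the lowest or highest of the list. One gene that this rule names is not reported here. The genes and lists were chosen with earlier results of these data known. Alternatives were RLE factors, no filter, a mean CPM of at least 1, DESeq2 1.42.0, a fit on only the groups compared, and leaving out each mouse.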

Additional observations from a re-analysis of the deposited data

Results flagged for a closer look

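In 13 of 33 sets of 4 livers (11 genes, *Cth* included, in 3 groups) the highest or lowest liver stood apart from the other 3 by more than Dixon's 95% critical value, which chance gives in about 1 in 20 sets of independent, normally distributed values. These sets are the same 12 livers over genes that vary together, in CPM of skewed genes, and the 13 come from 3 livers, so that the rate is no measure of chance here. Mouse av08 of the *Cse*-/- no-Cys group stood above its group for *Saa1* (190.9 CPM, the others at 12.83 to 30.16), *Saa2* (74.96, others 3.226 to 8.499), *Lcn2* (99.16, others 9.679 to 11.75), *Orm1* (725.3, others 166.1 to 212.2), *Orm2* (42.35, others 2.606 to 6.232) and *Cth* (13.28, others 6.374 to 7.039). Mouse av01 of the *Cse*+/- no-Cys group stood above its group for *Saa2* (525.6 CPM, the others at 10.09 to 85.16), *Lcn2* (137.3, others 2.963 to 11.82), *Orm2* (150.1, others 5.715 to 25.27) and *Cth* (331.9, others 120.6 to 131.7). Mouse av12 of the *Cse*-/- group on the no-Trp diet with BSO stood below its group for *Saa1* (21.75 CPM, the others at 69.53 to 79.38), *Lcn2* (9.385, others 46.15 to 50.28) and *Orm2* (5.605, others 13.91 to 15.34).

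The difference between genotypes itself differed between the no-Cys and no-Trp diets by the interaction test for *Socs3* (log2 difference 1.28, edgeR adjusted p = 0.0473) and *Cish* (log2 difference 2.57, edgeR adjusted p = 0.00618). As given above, the *Socs3* call was lost in a fit on only the groups compared and on leaving out most single mice.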

How the results depend on the processing

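The number of the 10 genes that passed the test between genotypes on the no-Cys diet was 1 in the fit used above, 5 without a filter on low counts (*Saa1*, *Saa2*, *Saa3*, *Orm1* and *Orm2*), 0 in a fit on only the groups compared and 0 to 4 when 1 mouse was left out. In the same order 3515, 3049, 2929 and 2664 to 3500 of all tested genes passed, so without a filter fewer passed among all genes and more among the 10. On the no-Trp diet the number of the 10 was 0, with 4 without a filter, 2 by DESeq2 and 0 to 2 when 1 mouse was left out. Beside these 389, 570, 720 and 109 to 421 of all tested genes passed. For the no-Trp against the control diet the number of the 10 was 0, with 1 without a filter, 1 by DESeq2 and 0 whichever mouse was left out, beside 7, 71, 60 and 2 to 9 of all tested genes. For the interaction the number of the 10 was 1, with 0 in a fit on only the groups compared and 0 to 1 when 1 mouse was left out, beside 643, 375 and 350 to 1150 of all tested genes. When 1 mouse was left out the number of the 10 was 1 to 3 for the *Cse*+/- no-Cys against no-Trp diets, beside 597 to 1329 of all tested genes. It was 0 to 1 for the *Cse*-/- no-Cys livers against the *Cse*-/- no-Trp livers and against the BSO group, beside 683 to 1855 and 52 to 1027. The number of the 10 was 0 under every setting for BSO against no BSO, beside 36 to 352 of all tested genes. The same held for the *Cse*+/- no-Cys against the control diet, beside 10 to 613. The cause was not tested.

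Some fitted log2 differences changed sign when a single mouse was left out. Between genotypes on the no-Cys diet *Lcn2* ranged from -1.83 to 2.46, at 2.46 without av01 and at 0.0674, 0.068 and 0.0812 without av05, av06 and av07, and *Hpx* ranged from -0.23 to 0.281, at 0.281 without av01 and 0.0389 without av05. Without av08 *Orm2* went to -0.93 for the *Cse*-/- no-Cys against no-Trp diets (highest value 1.21), *Saa2* to 1.58 for BSO against the no-Cys diet (lowest -0.84) and *Saa1* to -0.17 in the interaction (highest 3.01). *Lcn2* went to 0.34 between genotypes on the no-Trp diet without av17 (lowest -1.08), *Orm1* to 0.1685 and 0.164 for the no-Trp against the control diet without av20 and av22 (lowest -0.24), and *Orm2* to -0.89 for the *Cse*+/- no-Cys against no-Trp diets without av01 (highest 1.72). No paired analysis was possible because the columns of the table carry mouse numbers and not the replicate numbers of the labels. Genes near the filter, *Saa3* among them at 1.43 CPM in its lowest liver, rest on few counts.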
